A study of Xenopus laevis with 15 samples.

Results

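Transcripts of 5 genes for chromatin remodellers and histone-binding cofactors, smarca5, ino80, hcfc1, rbbp4 and mier3, were followed in whole Xenopus laevis embryos treated with the retinoid NRX204647. Each gene was taken as the row of the deposited FPKM matrix whose symbol equals its name, and each symbol had 1 row, giving 5 gene models of 45099. All 5 passed the filter for testing (15 libraries averaging 1 FPKM or more), as did 13192 gene models in all. They were picked from the named genes with the outcomes of the dose comparisons already known. Their values below are therefore a description of these libraries, and the adjusted p-values place each gene within the fit across all gene models without being independent tests.

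Embryos fertilized in vitro were kept from stage 6 to stage 18 in 0.1% ethanol as vehicle, or in NRX204647 at either 10 nM or 1 µM, with 5 libraries per group. Per the labels, the low dose acts selectively on retinoic acid receptor gamma and the high dose on the alpha, beta and gamma receptors. The replicates are described as single-clutch, without saying whether all groups share that clutch. No genetic change is named for any group. A library held 5 pooled embryos, and the protocol describes dishes of 25 embryos divided into 5 aliquots without mentioning further dishes. Treatment and dish therefore cannot be told apart, and the p-values measure the spread between aliquots, which may come from 1 dish.

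Chromatin remodellers are ATPases that slide, evict or exchange nucleosomes, and they work in complexes with proteins that bind histones or recruit enzymes to them. Retinoic acid receptors, which sit on DNA with retinoid X receptors, recruit corepressor complexes with histone deacetylases when no ligand is bound and exchange them for coactivators when a ligand binds. In the vertebrate embryo this signalling patterns the body axis and the hindbrain. The protein smarca5 is the ATPase of ISWI remodelling complexes, and ino80 is the ATPase of the INO80 complex. The protein hcfc1, host cell factor, is a scaffold for SET1 and MLL methyltransferases, for SIN3 deacetylase complexes and for the sugar transferase OGT. The protein rbbp4 is a WD40-repeat histone chaperone found in the CAF-1, NuRD, SIN3, NURF and Polycomb PRC2 complexes. The protein mier3 belongs to a family with ELM2 and SANT domains that in mammals recruits histone deacetylases.

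The depth of the libraries relative to the deepest ran from 0.312 to 0.833 with vehicle, from 0.259 to 0.646 at 10 nM and from 0.535 to 1 at 1 µM, an estimate from the smallest steps between low FPKM values. Each library held 1692257 to 6976240 such recovered reads over the tested gene models. A single gene model took 23.6% to 45.5% of the summed FPKM with vehicle, 17.6% to 32.9% at 10 nM and 14.5% to 26.2% at 1 µM, which weighs on every other value of a library. Of 24 marker genes for embryonic tissues, 4 had a row, and they came from neural plate (sox2), neural crest (sox9), epidermis (grhl3) and muscle (chrnd). All were above 0 in every library except sox2, which was at 0 in at least 1 library at 10 nM. The markers moved with the groups and not all in one direction. The muscle gene chrnd averaged 7.81 ± 1.81 FPKM with vehicle, 6.87 ± 0.422 FPKM at 10 nM and 3.30 ± 0.705 FPKM at 1 µM, and sox9 averaged 2.70 ± 0.396, 2.09 ± 0.631 and 5.86 ± 0.753 FPKM in the same order (SD, n = 5 each). The neural gene sox2 averaged 3.30 ± 0.934 FPKM with vehicle, 0.927 ± 0.822 FPKM at 10 nM and 1.66 ± 0.610 FPKM at 1 µM, and the epidermal gene grhl3 18.9 ± 1.35, 23.7 ± 0.956 and 15.1 ± 1.12 FPKM. Their summed level, most of it from grhl3, was 31.1 to 36.7 FPKM with vehicle, 32.2 to 35.6 FPKM at 10 nM and 23.3 to 28.7 FPKM at 1 µM. The part of tissue composition in the results below was not tested, and in whole embryos fewer cells of a type and less RNA per cell cannot be told apart.

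The table gives symbols without the suffix for the L or S subgenome of this allotetraploid frog. The RefSeq gene table (Xenopus_laevis_v10.1) lists L and S entries for smarca5, rbbp4 and mier3, an L entry for ino80 and an S entry for hcfc1. None of the deposited identifiers matched that table, so the copy each row stands for is not known, and reads shared between near-identical copies may have been split. The identifiers in the deposited table are Xelaev18000122m.g for smarca5, Xelaev18002705m.g for ino80, Xelaev18002853m.g for hcfc1, Xelaev18004046m.g for rbbp4 and Xelaev18002650m.g for mier3.

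The genes differed in level by close to an order of magnitude. FPKM is scaled for length, but levels compare only roughly between genes, since reads shared between L and S copies may have been split. The mean over the 15 libraries was 15.3 FPKM for smarca5, 10.8 for hcfc1, 5.55 for rbbp4, 2.42 for ino80 and 2.02 for mier3. The most abundant, smarca5, stood above 90.5% of the tested gene models in level, and the least abundant, mier3, above 35.0%. This order held for the means of each group. In every group the libraries of ino80 and mier3 overlapped, so these neighbours were not separated by their spread. At 1 µM the libraries of smarca5 and hcfc1 overlapped too, whereas with vehicle and at 10 nM every smarca5 library lay above every hcfc1 library.

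**Figure D1:**
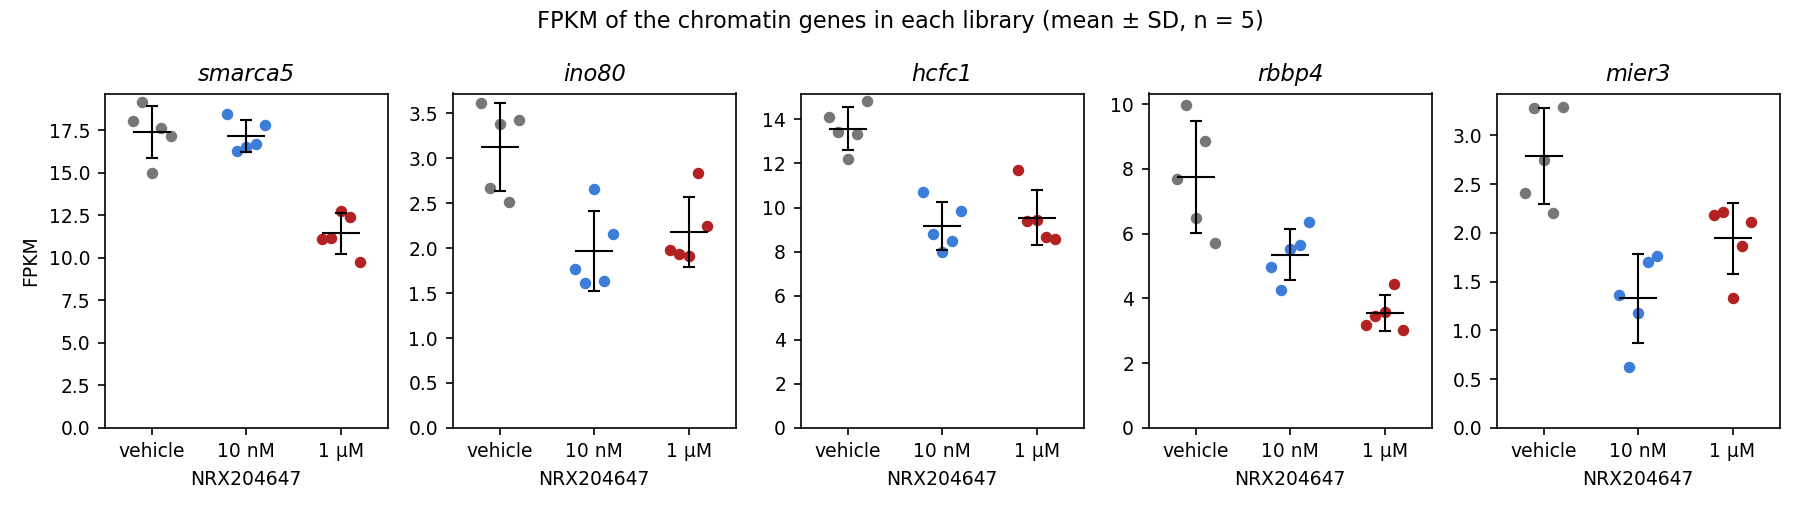
FPKM of smarca5, ino80, hcfc1, rbbp4 and mier3 (vertical axes, linear from 0, with a scale of its own for each gene) in the 5 libraries of each group (dots, horizontal axis: vehicle, 10 nM and 1 µM NRX204647), with bars for the mean ± SD. The smarca5 libraries at 10 nM lie among those with vehicle and all 5 at 1 µM lie below them, rbbp4 steps down with dose, and mier3 is lowest at 10 nM.

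Of the ATPase genes, smarca5 was lower at 1 µM and close to its vehicle level at 10 nM. It read 18.0, 19.2, 14.97, 17.6 and 17.2 FPKM in the vehicle libraries, 18.4, 16.3, 16.5, 16.7 and 17.8 FPKM at 10 nM, and 11.1, 11.1, 12.7, 12.4 and 9.77 FPKM at 1 µM. All 5 libraries at 1 µM lay below every library of the other groups, and all 5 at 10 nM lay within the vehicle range. Group means were 17.4 ± 1.55 FPKM with vehicle, 17.1 ± 0.934 FPKM at 10 nM and 11.4 ± 1.18 FPKM at 1 µM (SD, n = 5 each), so that the mean at 1 µM was 0.657 times that with vehicle. On the log2(FPKM + 1) scale, which understates changes of low genes, the difference from vehicle was -0.57 ± 0.09 at 1 µM (SE, limma adjusted p = 8.02e-05). At 10 nM it was -0.02 ± 0.09 (limma adjusted p = 0.905), with a 95% confidence interval from -0.20 to 0.17. Between the doses, 1 µM was lower by -0.55 ± 0.09 (limma adjusted p = 0.000228). The gene rested on 404 to 1368 recovered reads per library, more in each than ino80, rbbp4 or mier3.

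The other ATPase gene, ino80, was lower at both doses, with 1 library per dose inside the vehicle range. It read 3.62, 2.67, 3.38, 2.52 and 3.43 FPKM with vehicle, 1.76, 1.61, 2.66, 1.64 and 2.16 FPKM at 10 nM, and 1.99, 1.93, 1.91, 2.84 and 2.25 FPKM at 1 µM. At each dose 4 of 5 libraries lay below the lowest vehicle library, and the exceptions were 10 nM replicate 3 and 1 µM replicate 4. The means were 3.12 ± 0.493 FPKM with vehicle, 1.97 ± 0.445 FPKM at 10 nM and 2.18 ± 0.389 FPKM at 1 µM (SD, n = 5 each). The log2 differences from vehicle were -0.48 ± 0.12 (SE, limma adjusted p = 0.00918) for 10 nM and -0.37 ± 0.12 for 1 µM (limma adjusted p = 0.0163). The doses differed by 0.11 ± 0.12 (limma adjusted p = 0.564), with an interval from -0.14 to 0.35. Recovered reads ran from 44 to 301 per library. For this gene model the smallest step was a fraction of a read, so the step that made 14 of 15 values whole was taken.

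The scaffold gene hcfc1 was lower at both doses by nearly the same amount. It read 14.1, 13.4, 12.2, 13.3 and 14.8 FPKM with vehicle, 10.7, 8.79, 7.99, 8.49 and 9.83 FPKM at 10 nM, and 11.7, 9.37, 9.44, 8.66 and 8.56 FPKM at 1 µM. All 10 treated libraries lay below all 5 vehicle libraries, while the libraries of the doses overlapped. Means were 13.6 ± 0.981 FPKM with vehicle, 9.17 ± 1.10 FPKM at 10 nM and 9.55 ± 1.27 FPKM at 1 µM (SD, n = 5 each), or 0.675 and 0.703 times the vehicle mean at 10 nM and 1 µM. The log2 differences from vehicle were -0.52 ± 0.10 (SE, limma adjusted p = 0.00188) for 10 nM and -0.47 ± 0.10 for 1 µM (limma adjusted p = 0.00104). Between the doses the difference was 0.05 ± 0.10 (limma adjusted p = 0.754), and its interval from -0.16 to 0.26 leaves room for a difference in either direction. The highest library at 1 µM, replicate 1 at 11.7 FPKM, stood apart from the other 4, which read 8.56 to 9.44 FPKM. Without it the difference between the doses was -0.02. With 392 to 2126 recovered reads per library, hcfc1 had the deepest support of the 5 genes with vehicle and at 1 µM. At 10 nM smarca5 had more reads than hcfc1 except in replicate 1 (901 against 942).

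The histone chaperone gene rbbp4 stepped down with dose. It read 7.70, 9.98, 6.50, 8.87 and 5.71 FPKM with vehicle, 4.95, 4.26, 5.51, 5.64 and 6.36 FPKM at 10 nM, and 3.19, 3.46, 3.59, 4.44 and 3.03 FPKM at 1 µM. All libraries at 1 µM lay below all vehicle libraries, but at 10 nM the highest library (replicate 5) was above the lowest vehicle library. The highest library at 1 µM, replicate 4, was the shallowest of that group and lay inside the 10 nM range. The means were 7.75 ± 1.73 FPKM with vehicle, 5.34 ± 0.788 FPKM at 10 nM and 3.54 ± 0.549 FPKM at 1 µM (SD, n = 5 each), and the 1 µM mean was 0.457 times the vehicle mean. The log2 difference from vehicle was -0.93 ± 0.13 at 1 µM (SE, limma adjusted p = 4.85e-05), the largest of the 15 differences fitted for these genes. It was -0.45 ± 0.13 at 10 nM (limma adjusted p = 0.0255), and 1 µM was lower than 10 nM by -0.48 ± 0.13 (limma adjusted p = 0.0164). The 10 nM call was kept in 23 of 30 alternatives, with a limma adjusted p from 0.00467 to 0.357 over all of them. It was lost without vehicle replicate 2 (limma adjusted p = 0.0622), without vehicle replicate 4 (0.0622) and without 10 nM replicate 2 (0.0649). Other losses were with no filter (0.0571), with only the groups compared (0.0532), without the 5 libraries shallower than 0.4 of the deepest (0.357) and at a threshold of 0.01. Recovered reads ran from 51 to 329 per library.

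The deacetylase cofactor gene mier3 was lowest at the low dose. It read 2.41, 3.28, 2.75, 2.20 and 3.29 FPKM with vehicle, 1.37, 0.628, 1.17, 1.70 and 1.76 FPKM at 10 nM, and 2.19, 2.21, 1.34, 1.87 and 2.11 FPKM at 1 µM. All 10 nM libraries lay below all vehicle libraries. At 1 µM 4 of 5 libraries lay above every 10 nM library and 4 of 5 below every vehicle library. Means were 2.79 ± 0.496 FPKM with vehicle, 1.33 ± 0.460 FPKM at 10 nM and 1.94 ± 0.365 FPKM at 1 µM (SD, n = 5 each), so that the 10 nM mean was 0.476 times the vehicle mean. The log2 difference from vehicle was -0.72 ± 0.14 at 10 nM (SE, limma adjusted p = 0.00303). At 1 µM it was -0.36 ± 0.14, just short of a call (limma adjusted p = 0.0501). Between the doses, 1 µM against 10 nM, it was 0.35 ± 0.14 and not called either (limma adjusted p = 0.0897).

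Read support for mier3 was the thinnest of the 5 genes, at 37 to 118 recovered reads with vehicle, 7 to 49 at 10 nM and 43 to 95 at 1 µM. The lowest value, in 10 nM replicate 2, rested on 7 reads in the shallowest library, with an exact 95% Poisson interval of 0.253 to 1.29 FPKM that covers counting error only. That interval ends below the lowest vehicle value of 2.20 FPKM, as do those of replicates 1 and 3 (up to 1.95 and 1.81 FPKM). The intervals of 10 nM replicate 4 (1.18 to 2.38 FPKM) and replicate 5 (1.31 to 2.33 FPKM) reach above it. The lowest vehicle value, in replicate 4, has an interval of its own from 1.74 to 2.76 FPKM. The 1 µM difference from vehicle passed the threshold without vehicle replicate 4 (limma adjusted p = 0.0364) and without 10 nM replicate 2 (0.0195), replicate 4 (0.0486) or replicate 5 (0.0463), which enter through the shared estimate of spread. It also passed after median-of-ratios scaling (limma adjusted p = 0.0262), quantile normalization (0.0151) and a length correction (0.0205). The same held for voom on the recovered reads (0.0139) and for totals equalised leaving out the top gene model (0.00879). Over all alternatives the adjusted p of this 1 µM difference ran from 0.00879 to 0.133, with 13 of 29 below the threshold. The difference between the doses passed without 1 µM replicate 3 (limma adjusted p = 0.0482), within a range of 0.0482 to 0.438.

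**Figure D2:**
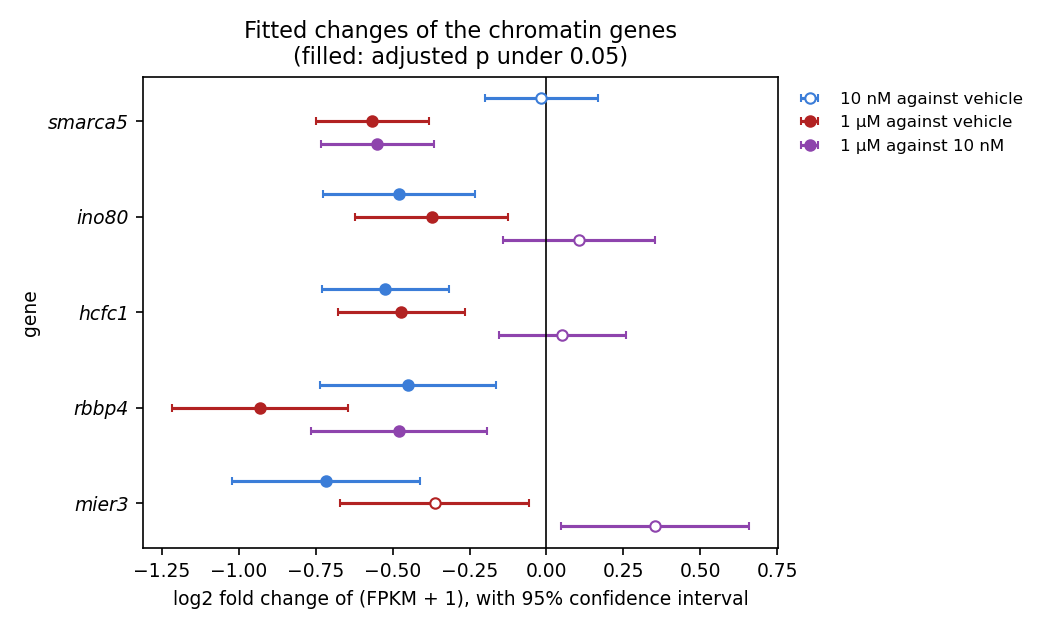
Fitted log2 fold changes of FPKM + 1 (horizontal axis) with 95% confidence intervals for smarca5, ino80, hcfc1, rbbp4 and mier3 (vertical axis) in the 3 comparisons (colours). Filled points have a limma adjusted p under 0.05. Intervals of smarca5 at 10 nM against vehicle, and of ino80 and hcfc1 at 1 µM against 10 nM, span 0. The mier3 interval lies below 0 at 1 µM against vehicle and above 0 at 1 µM against 10 nM, without a call in either.

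At 10 nM against vehicle 4 of the 5 genes were called lower and smarca5 was not called, where 23.3% of the tested gene models were called and 10.3% were called lower. The libraries of 2 genes, hcfc1 and mier3, lay wholly below those with vehicle, as they did for 5.92% of tested gene models. At 1 µM against vehicle 4 were called lower and mier3 was not called, with 45.6% of tested gene models called and 16.6% called lower. There the libraries of smarca5, hcfc1 and rbbp4 lay wholly below those with vehicle, as for 11.4% of tested gene models. At 1 µM against 10 nM smarca5 and rbbp4 were called lower and the other 3 were not called, with 23.8% called and 7.72% called lower, and the libraries of smarca5 did not overlap (6.06% of tested gene models, lower). Nothing is read from these counts, since the choice of the genes used the same comparisons, and both doses were compared with the same vehicle libraries.

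The direction of calls over all gene models depended on the scaling of the libraries. Of the calls at 1 µM against vehicle 63.5% were higher as deposited. The share was 51.5% after scaling by median-of-ratios size factors, 44.7% after quantile normalization and 39.0% when totals were equalised leaving out the top gene model (the common total). It was 49.8% after a length correction and 49.2% by voom on the recovered reads. In the same order the shares were 55.8% and then 52.0%, 44.8%, 27.7%, 50.4% and 55.0% at 10 nM against vehicle. They were 67.5% and then 51.8%, 47.6%, 55.1%, 51.7% and 47.5% at 1 µM against 10 nM. Relative to the median change of all tested gene models under each of these scalings, rbbp4 stood at -1.23 to -1.02 at 1 µM against vehicle and smarca5 at -0.74 to -0.59. At 10 nM against vehicle mier3 stood at -1.02 to -0.68, hcfc1 at -0.58 to -0.44 and smarca5 at -0.12 to 0.04. The ends at -1.23 for rbbp4 and -1.02 for mier3 were those of voom, whose values are not log2(FPKM + 1). Under the other scalings these 2 genes reached no lower than -1.05 and -0.75. Under none of these 6 scalings did ino80, hcfc1, rbbp4 or mier3 at either dose, or smarca5 at 1 µM, change the sign of its difference from vehicle.

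Counted by library, no treated library held all 5 genes at vehicle levels. Of the 10 nM libraries, 3 had 4 genes below the lowest vehicle library and 2 had 3 such genes, and smarca5 was in none of these sets. Of the 1 µM libraries, 3 had all 5 genes below the lowest vehicle library and 2 had 4. The gene missing from the set was mier3 in 1 µM replicate 2 and ino80 in 1 µM replicate 4. No share over all tested gene models was computed for these counts by library. Since the choice of the genes used the same comparisons, nothing is read from them either.

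Ratios between genes of the same library do not depend on any single factor by which that library was scaled, though quantile normalization and the length correction would move them, and they show only that genes changed unequally. The ratio of hcfc1 to smarca5 was 0.783 ± 0.0623 with vehicle, 0.533 ± 0.0376 at 10 nM and 0.842 ± 0.137 at 1 µM (SD, n = 5 each). Its 10 nM libraries, at 0.484 to 0.581, lay below all others, which started at 0.699. The ratio of mier3 to smarca5 followed the same order, at 0.161 ± 0.030 with vehicle, 0.0770 ± 0.0257 at 10 nM and 0.173 ± 0.0452 at 1 µM. For ino80 the ratio was 0.182 ± 0.0386 with vehicle, 0.115 ± 0.0277 at 10 nM and 0.192 ± 0.0359 at 1 µM, with an overlap of the 10 nM libraries and the others. The ratio of rbbp4 to smarca5 differed from these in shape, at 0.443 ± 0.0741 with vehicle, 0.312 ± 0.0437 at 10 nM and 0.310 ± 0.0304 at 1 µM. Between the cofactor and the chaperone, mier3 to rbbp4, the ratio was 0.378 ± 0.127 with vehicle, 0.243 ± 0.0628 at 10 nM and 0.563 ± 0.154 at 1 µM, and its libraries at 1 µM (0.372 to 0.697) lay above those at 10 nM (0.148 to 0.302). The ratio of ino80 to hcfc1 stayed within 0.165 to 0.332 over all libraries, with group means of 0.231, 0.218 and 0.234 in order of dose.

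**Figure D3:**
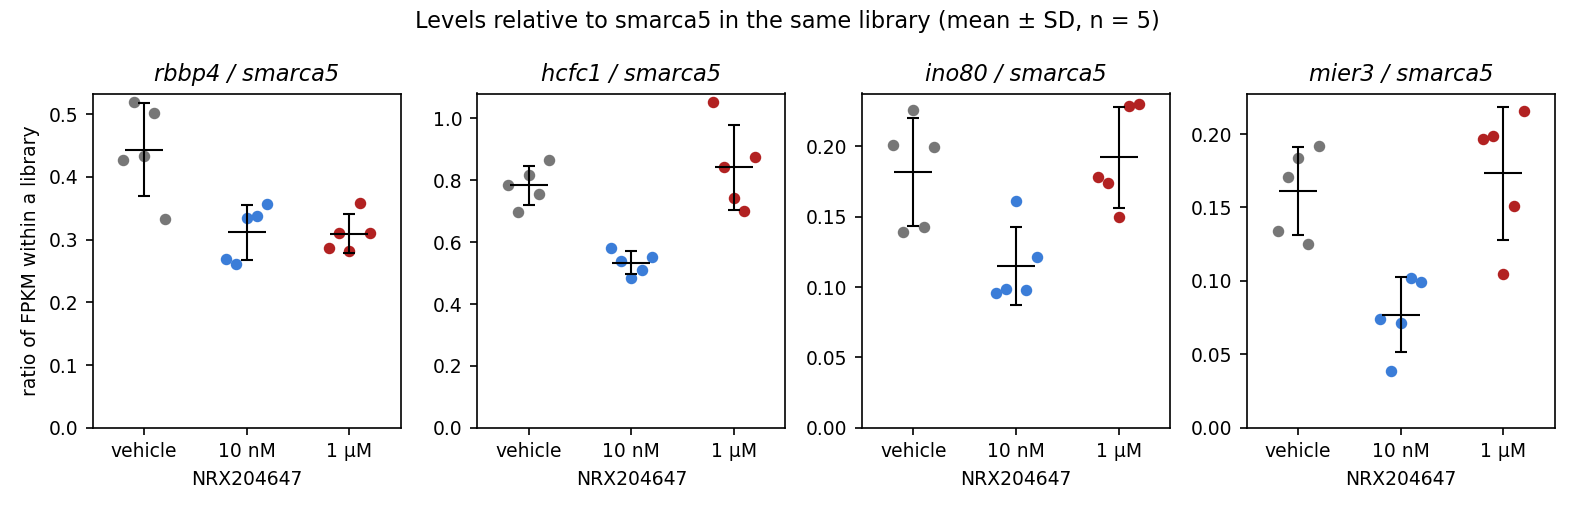
Ratio of the FPKM of rbbp4, hcfc1, ino80 and mier3 to that of smarca5 in the same library (vertical axes, linear from 0) for vehicle, 10 nM and 1 µM NRX204647 (horizontal axis), with dots for libraries and bars for the mean ± SD of 5. The hcfc1, ino80 and mier3 ratios are lowest at 10 nM, at 0.533, 0.115 and 0.0770, while the rbbp4 ratio is 0.312 at 10 nM and 0.310 at 1 µM.

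Few other chromatin genes carry a symbol in the table. A list of 290 symbols in 11 classes of remodellers, histone modifiers, chaperones and nuclear receptor cofactors met 20 rows, the 5 genes above included, and 11 of the other 15 passed the filter. At 10 nM against vehicle 3 of these 11 were called lower, none higher and 8 were not called. Of the 13192 tested gene models, 1358 (10.3%) were called lower and 1716 higher. The median log2 difference of the 11 was -0.13 against 0.01 for all tested gene models. At 1 µM against vehicle 5 were called lower, none higher and 6 not, with a median of -0.16 against 0.09. Of all tested gene models, 2195 (16.6%) were called lower and 3814 higher there. At 1 µM against 10 nM 2 were called lower, none higher and 9 not, with a median of -0.04 against 0.08. Between the doses 1018 (7.72%) of all tested gene models were called lower and 2118 higher.

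Among nuclear receptor cofactors, ncoa6, a coactivator that binds nuclear receptors and is a subunit of MLL-type methyltransferase complexes, was lower at both doses. Its mean was 2.61 ± 0.262 FPKM with vehicle, 1.76 ± 0.341 FPKM at 10 nM and 1.34 ± 0.137 FPKM at 1 µM (SD, n = 5 each), and the libraries of both doses lay below all vehicle libraries. The log2 differences from vehicle were -0.39 ± 0.09 (SE, limma adjusted p = 0.00733) for 10 nM and -0.63 ± 0.09 for 1 µM (limma adjusted p = 5.92e-05). The gene kmt2a, which encodes an MLL methyltransferase, was not called in any comparison as deposited. It averaged 1.79 ± 0.0816 FPKM with vehicle, 1.84 ± 0.232 FPKM at 10 nM and 1.52 ± 0.193 FPKM at 1 µM. It was called lower at 1 µM against vehicle under 4 of the 5 rescalings, all but the length correction (limma adjusted p from 0.0026 to 0.0184). Between the doses ncoa6 was not called as deposited either (log2 difference -0.23 ± 0.09, limma adjusted p = 0.0846). Under all 5 rescalings kmt2a and ncoa6 were called lower at 1 µM than at 10 nM. Their limma adjusted p ran from 0.0052 to 0.0447 for kmt2a and from 0.0072 to 0.0419 for ncoa6.

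Of other NuRD subunits, which share a complex with rbbp4, gatad2a and mta1 had a row above the filter. The gene gatad2a averaged 5.56 ± 0.987 FPKM with vehicle, 3.97 ± 0.612 FPKM at 10 nM and 3.86 ± 0.845 FPKM at 1 µM (SD, n = 5 each), with log2 differences from vehicle of -0.39 ± 0.13 (limma adjusted p = 0.0413) at 10 nM and -0.43 ± 0.13 (limma adjusted p = 0.0138) at 1 µM. The gene mta1 averaged 3.90 ± 0.581 FPKM with vehicle, 3.75 ± 0.562 FPKM at 10 nM and 2.62 ± 0.246 FPKM at 1 µM. Its libraries at 1 µM lay below those of both other groups, with a log2 difference of -0.43 ± 0.10 from vehicle (limma adjusted p = 0.00260) and of -0.39 ± 0.10 from 10 nM (limma adjusted p = 0.0103).

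The SNF2-family helicase gene hells, which acts in DNA methylation in mammals, was lower at 1 µM than in either other group. It averaged 3.92 ± 0.674 FPKM with vehicle, 4.29 ± 0.702 FPKM at 10 nM and 2.80 ± 0.451 FPKM at 1 µM (SD, n = 5 each). The log2 difference was -0.37 ± 0.12 from vehicle (limma adjusted p = 0.0183) and -0.48 ± 0.12 from 10 nM (limma adjusted p = 0.00775). The hells libraries at 1 µM overlapped those with vehicle. Without the libraries shallower than 0.4 of the deepest, the hells call against vehicle was lost (-0.30, limma adjusted p = 0.132). At 1 µM against vehicle that setting also lost the calls of gatad2a (-0.25, limma adjusted p = 0.292) and pcgf6 (-0.30, limma adjusted p = 0.143). At 10 nM it left none of the 11 genes called, ncoa6 included (-0.32, limma adjusted p = 0.174). The Polycomb gene pcgf6 was called lower at 1 µM against vehicle (log2 difference -0.36 ± 0.14, limma adjusted p = 0.0488), and the histone demethylase gene phf8 at 10 nM against vehicle (-0.27 ± 0.10, limma adjusted p = 0.0495). These calls, and that of gatad2a at 10 nM, were fragile. Of 15 fits that each left out 1 library, 11 lost the pcgf6 call (limma adjusted p up to 0.112), 13 lost the phf8 call (up to 0.115) and 9 lost the gatad2a call (up to 0.0971). The fits that kept the pcgf6 call left out vehicle replicate 3, 10 nM replicate 2, 10 nM replicate 3 or 1 µM replicate 2, and those that kept the phf8 call left out vehicle replicate 3 or 10 nM replicate 1. The gatad2a call was kept without vehicle replicate 5, 10 nM replicates 1 or 4, or 1 µM replicates 1, 3 or 4.

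The INO80-complex subunit actr8, the deacetylase scaffold sin3b, the demethylase kdm5c and smarca2-like, related to the ATPase of SWI/SNF complexes, were not called in any comparison as deposited. At 10 nM against vehicle actr8 was called lower under the common total (limma adjusted p = 0.0263) and the length correction (0.0268), and kdm5c under the common total (0.0429). Between the doses kdm5c was called higher at 1 µM with library weights (limma adjusted p = 0.041), without 10 nM replicate 2 (0.0411) and without 1 µM replicate 1 (0.0289). The gene phf8 was called lower at 1 µM against vehicle under all 5 rescalings (limma adjusted p from 0.0018 to 0.0417) and without vehicle replicate 3 (0.0492). Between the doses pcgf6 was called lower at 1 µM after quantile normalization (limma adjusted p = 0.0338), with the length correction (0.0398) and with the replicate block (0.0496). Over all genes of the list not called as deposited, log2 differences ran from -0.26 to 0.11 at 10 nM against vehicle, from -0.16 to 0.15 at 1 µM against vehicle and from -0.32 to 0.35 at 1 µM against 10 nM. The 4 rows below the filter were chd3, znhit1, h2afx and kdm5a-like.1. Of these kdm5a-like.1, at a mean of 0.990 FPKM over the 15 libraries, missed it narrowly, with 1.48 ± 0.331 FPKM with vehicle, 0.698 ± 0.223 FPKM at 10 nM and 0.788 ± 0.126 FPKM at 1 µM (SD, n = 5 each).

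**Figure D4:**
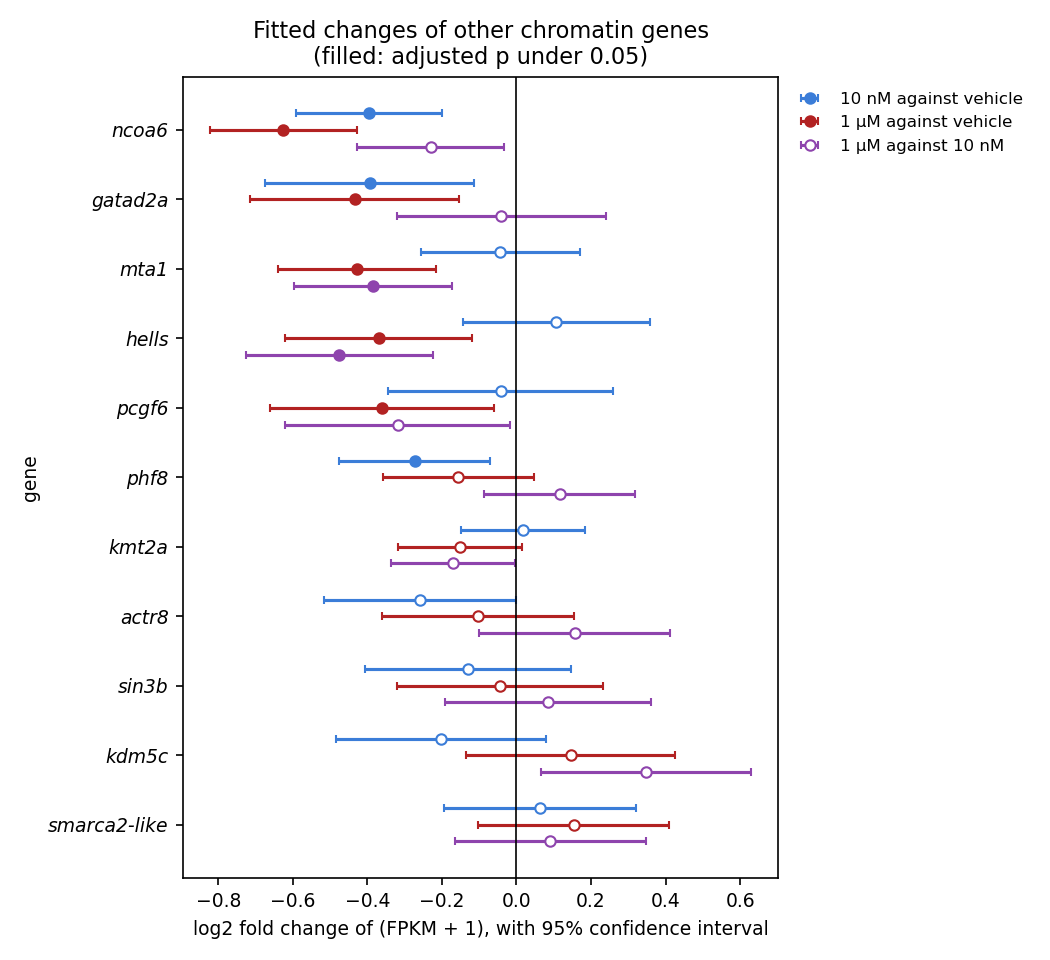
Fitted log2 fold changes of FPKM + 1 (horizontal axis) with 95% confidence intervals for the 11 other tested chromatin genes (vertical axis, ordered by the change at 1 µM against vehicle) in the 3 comparisons (colours). Filled points have a limma adjusted p under 0.05, and all of them lie below 0, with ncoa6 at 1 µM against vehicle the farthest at -0.63.

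The named genes with the most similar profiles were sought among 309 tested gene models with a symbol, by the root mean square difference of log2(FPKM + 1) over the 15 libraries after each gene's own mean was subtracted. The profile nearest to smarca5 was that of hells, at 0.16, followed by ier5l and tll1-like.1, both at 0.17, where the root mean square deviation of smarca5 from its own mean was 0.28. For ino80 they were srrt at 0.15, ubap2-like at 0.18 and macf1 at 0.19, against 0.26 for ino80 itself. For hcfc1 they were znf605 at 0.14, ubap2-like at 0.15 and zmiz1 at 0.15, against 0.27. The gene ubap2-like, at 14.9 ± 0.632 FPKM with vehicle, 9.77 ± 1.01 FPKM at 10 nM and 9.26 ± 0.512 FPKM at 1 µM (SD, n = 5 each), came up for ino80, hcfc1 and mier3.

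For rbbp4 the nearest profile was tll1-like.1 at 0.17, with tnpo2-like and ttk both at 0.23, against 0.43 for rbbp4 itself. The gene tll1-like.1, also listed for smarca5, averaged 2.79 ± 0.409 FPKM with vehicle, 2.03 ± 0.225 FPKM at 10 nM and 1.015 ± 0.115 FPKM at 1 µM. Its mean was lower at 10 nM than with vehicle, unlike that of smarca5, so a small difference did not mean the same shape. The mitotic kinase gene ttk averaged 7.04 ± 0.608 FPKM with vehicle, 5.23 ± 0.481 FPKM at 10 nM and 4.31 ± 0.459 FPKM at 1 µM (SD, n = 5 each). For mier3 the likeness was weaker, with lrp6 and ubap2-like at 0.25 and mau2 at 0.27, against 0.36 for mier3 itself. The Wnt co-receptor gene lrp6 was, like mier3, lowest at the low dose, with 2.96 ± 0.112 FPKM with vehicle, 1.82 ± 0.405 FPKM at 10 nM and 2.52 ± 0.291 FPKM at 1 µM.

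Depth differed between the groups, and its part in these results was not tested. Without the 5 libraries shallower than 0.4 of the deepest, leaving 2 with vehicle, 3 at 10 nM and 5 at 1 µM, none of the 5 genes was called at 10 nM against vehicle by limma (3 of 5 at an unadjusted p under 0.05), and 673 gene models were called in place of 3074. The log2 differences at 10 nM were then -0.50 for hcfc1, -0.47 for ino80, -0.51 for mier3 and -0.30 for rbbp4, with limma adjusted p from 0.0765 to 0.357. At 1 µM against vehicle rbbp4 (-0.85), smarca5 (-0.57) and hcfc1 (-0.52) were still called, and ino80 was not (-0.32, limma adjusted p = 0.108). Of 13192 tested gene models 4504 were called there, 1501 of them lower. No share at an unadjusted p was computed over all gene models.

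**Figure D5:**
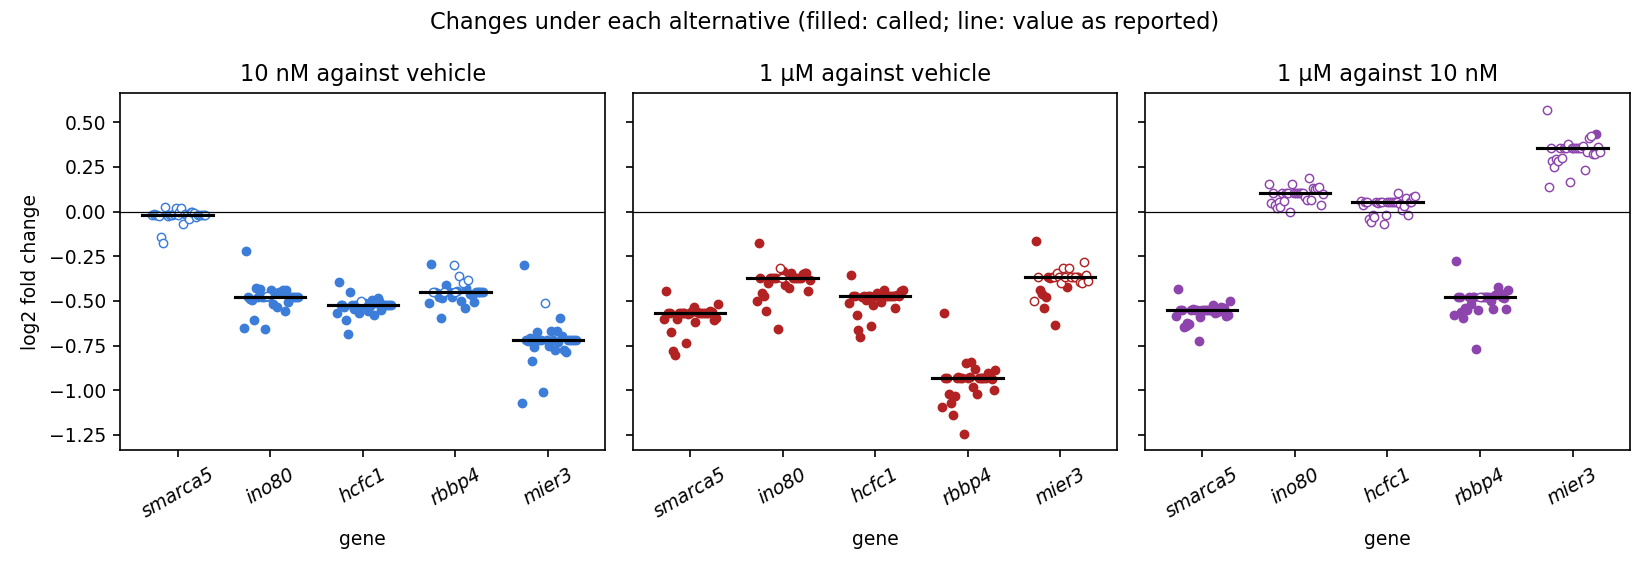
Log2 fold change (vertical axis) of smarca5, ino80, hcfc1, rbbp4 and mier3 (horizontal axis) in each comparison (panels) under every alternative setting in which the gene was tested, with filled points where the gene was called, open points where it was not, and a line at the value as reported. The points of smarca5 and rbbp4 at 1 µM against vehicle are all filled, those of mier3 at 1 µM against vehicle are filled in 13 of 29 settings, and none of smarca5 at 10 nM against vehicle is filled.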

How the data were processed

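The authors deposited 1 table with a column of FPKM (reads scaled by gene length and by library total) for each library. The submitters' processing notes name TopHat, Bowtie and Cufflinks. Tool versions, the annotation and the genome build were not given in the sources used here. Per the labels' protocols, 100 ng of total RNA was amplified with the NuGEN Ovation V2 kit, and SOLiD sequencing gave unstranded single reads of 50 nt, so reads of overlapping or antisense genes cannot be told apart.

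Values were analysed as log2(FPKM + 1) where a gene model averaged 1 FPKM or more, with limma 3.58.1 (mean-variance trend, all 3 groups in 1 fit, two-sided, Benjamini-Hochberg adjustment over 13192 gene models, call at 0.05) in R 4.3.3. The fit was tested on simulated data. Other values came from Python 3.11.15 with pandas 2.3.3, numpy 2.4.6 and scipy 1.17.1, and figures from matplotlib 3.10.9. Depth and reads were recovered from the steps in the values, which came out whole within 0.03 reads for 97.9% of tested gene models. Where at least 0.8 of a gene model's values shared a factor, the step was raised to it. None of the 30 replicate pairs held identical values, and in each the recovered reads differed beyond counting noise (chi-square over its degrees of freedom 4.34 to 14.0).

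The genes and lists were chosen with earlier results of these data known. Named were the 5 genes, every tested gene of the chromatin lists and the 3 nearest profiles of each gene. Alternatives were pseudocounts of 0.1 and 5, no filter, a minimum of 5 FPKM, 4 scalings, the replicate number as a block, a robust variance prior, library weights, fits restricted to the groups compared, voom on recovered reads, leaving out shallow or single libraries, and a threshold of 0.01. No sequences are shown.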

Additional observations from a re-analysis of the deposited data

Results flagged for a closer look

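In 48 groups of 5 libraries examined (16 chromatin genes in 3 groups), 3 held a library far from the others, where chance alone gives about 1 in 20. The hcfc1 value of 11.7 FPKM in 1 µM replicate 1 had its nearest neighbour at 9.44 FPKM. The gatad2a value of 5.36 FPKM in 1 µM replicate 4 had its nearest neighbour at 3.63 FPKM. The actr8 value of 1.85 FPKM in 1 µM replicate 5 had its nearest neighbour at 1.21 FPKM.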

How the results depend on the processing

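Of 444 recomputed differences of the 5 genes, 406 kept their direction and side of the threshold, 13 lost a call, 14 gained one and 11 changed sign. The sign changes were of small differences. Between the doses hcfc1 gave -0.042 after median-of-ratios scaling, -0.056 after quantile normalization, -0.022 under a common total, -0.029 with the length correction, -0.070 with voom, -0.021 without the shallow libraries and -0.017 to 0.10 without single libraries, and ino80 gave -0.00075 with voom. At 10 nM against vehicle smarca5 gave 0.028 with the length correction, 0.017 without the shallow libraries and -0.067 to 0.017 without single libraries.

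Of 13192 tested gene models 3074 were called at 10 nM, 6009 at 1 µM and 3136 between the doses. At a minimum of 5 FPKM only 4007 were tested, and 1560, 2250 and 1047 of these were called in that order. With all 13192 tested, calls fell to 673 at 10 nM without the shallow libraries. They fell to 1333 at 10 nM and 1886 between the doses at the 0.01 threshold. Of the 5 genes, 2 were called at 10 nM with the 5 FPKM minimum (ino80 and mier3 were not tested), 0 without the shallow libraries (3 at an unadjusted p under 0.05, limma), and 1 between the doses at 0.01.

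The other chromatin genes called at 10 nM (3 of 11) were 1 with no filter, 1 at 5 FPKM, 5 with the common total, 1 with only the groups compared, 0 without the shallow libraries (1 at an unadjusted p under 0.05, limma), 1 at 0.01 and 1 to 3 without single libraries. At 1 µM (5) they were 0 at 5 FPKM, where phf8 alone was tested (unadjusted p over 0.05, limma), 2 without the shallow libraries, 2 at 0.01, 7 each after median-of-ratios scaling, quantile normalization, the common total and voom, and 6 with the length correction. Between the doses (2) they were 0 at 5 FPKM (phf8 again over 0.05), 4 after median-of-ratios scaling, 5 after quantile normalization, 4 under the common total, 5 with the length correction, 4 with voom and 1 at 0.01. Calls over all tested gene models moved as well. At 10 nM 2624 of 36957 were called with no filter, 4267 with the common total (3084 lower) and 2346 with only the groups compared. At 1 µM 6268 were called after median-of-ratios scaling, 6351 after quantile normalization and 6603 under the common total. There 6599 of 12917 were called with voom and 6146 with the length correction. In that order they were 3210, 3283, 3133, 3464 and 3240 between the doses. The cause of these shifts was not tested.

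Among these genes, sign changes at 10 nM were smarca2-like -0.071, kmt2a -0.096 and hells -0.030 with the common total, mta1 0.012 and kmt2a -0.0051 with library weights, and mta1 0.074 and kmt2a -0.0036 without the shallow libraries. At 1 µM they were kdm5c -0.056 and smarca2-like -0.043 with the common total and actr8 0.050 without the shallow libraries. Between the doses they were phf8 -0.0098 and smarca2-like -0.032 with quantile normalization and sin3b -0.0079 with voom. Without single libraries the ranges at 10 nM were -0.15 to 0.043 for pcgf6, -0.10 to 0.0045 for mta1, -0.016 to 0.050 for kmt2a and -0.014 to 0.13 for smarca2-like. They were -0.13 to 0.077 for sin3b at 1 µM and -0.14 to 0.012 for gatad2a between the doses.

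Replicate numbers did not pair the libraries (correlations of same-numbered deviations -0.11 to 0.11, 1 of 15 over 0.1, 3 of 15 libraries correlating best with their own number). With the replicate block 2933, 5966 and 3051 gene models were called. Recovered reads were fewest for mier3 (7 to 118 per library). The common total moved the median change of all gene models by -0.12 at 10 nM and -0.18 at 1 µM, quantile normalization by -0.13 and the length correction by -0.10 at 1 µM, and voom by -0.11 between the doses.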
